A study of Danio rerio with 39 samples.

Results

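The effect of TCDD (tetrachlorodibenzo-p-dioxin, or dioxin) on whole zebrafish embryos was measured on day 4 by setting the 4 arrays of TCDD-exposed embryos against the 4 arrays of embryos given the solvent DMSO. These 8 arrays, chosen by the treatment and day in their labels, were among the 39 arrays of a time course over days 1 to 5. Both groups were AB* strain embryos, kept 15 to 20 to a glass vial. The TCDD group was dosed at 1 ng/mL between 4 and 5 h after fertilization, the dose lasting 1 h before the embryos were rinsed, and the DMSO group received the solvent over the same hour. The series title gives an exposure running over the days of collection, and the 1 h of the exposure protocol is used here. Replicates 1 to 4 of each group came from 4 independent experiments, so that a TCDD and a DMSO array with the same number form a pair. On every array RNA of pooled whole embryos carried Cy5 and was hybridized against the same reference RNA, that of the zebrafish embryonic fibroblast line Zf4, in Cy3. A value is therefore a log2 ratio of embryo to reference signal, and the change of a gene is the mean TCDD log2 ratio minus the mean DMSO log2 ratio. In RNA of whole embryos, fewer cells of a type and less RNA per cell cannot be told apart.

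Dioxin binds the aryl hydrocarbon receptor (AHR), a transcription factor that rests in the cytosol with chaperones and, once bound, enters the nucleus and pairs with ARNT proteins on the response elements of its target genes. The classic target is *cyp1a*, which encodes a xenobiotic-metabolizing cytochrome P450. In zebrafish larvae the receptor Ahr2 mediates dioxin toxicity, whose known signs are heart malformation, edema, slowed blood flow, anemia and a shortened jaw.

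Of the 21495 probes, 17202 to 18032 on the TCDD arrays and 16329 to 18259 on the DMSO arrays gave an embryo signal well above background. Between 29 and 73 probes per day 4 array were saturated, none of them a gene named here. Across probes, the r between 2 day 4 arrays lay between 0.905 and 0.965. TCDD replicate 1 received the lowest weight of the day 4 arrays in a fit with array weights (0.576), followed by DMSO replicate 3 (0.644), and the others received between 0.868 and 1.64. The median log2 ratio of an array lay between -0.18 and -0.15 in the TCDD group and between -0.17 and -0.15 in the DMSO group.

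On day 4, 192 of 21494 tested probes (0.893%) differed between TCDD and DMSO at a Benjamini-Hochberg adjusted p under 0.05 in limma, and such probes are referred to as called. TCDD raised 45 of them (0.209%) and lowered 147 (0.684%). All 192 changed the same way in all 4 pairs, as did 13.3% (higher) and 10% (lower) of all probes tested. The groups did not overlap in 42 of the 45 and 145 of the 147, against 2.69% of all probes with every TCDD array above every DMSO array and 3.06% below (5.76% together). The probes were called on these same arrays, so both counts follow in part from the calling. Most changes were small, with a median log2 change of 0.49 among the probes called higher and of -0.61 among those called lower. Only 4 of the higher and 3 of the lower probes changed by 2-fold or more. The higher ones were those of *cyp1a*, *mpx* and *cyb5a* (by 2 probes), and the lower ones were TC276977, *zgc:92590* and CO353413, of which CO353413 was picked with its value known. At the study's threshold, an unadjusted p under 0.01, 726 probes (3.38%) differed, 348 higher (1.62%) and 378 lower (1.76%). With the experiment as a block 339 probes were called, 134 higher and 205 lower, and they included all 192. Without TCDD replicate 1, 46 were called (14 higher, 32 lower), and 83, 124 and 97 without DMSO replicate 2, 3 or 4. With the day 4 pair of experiment 1, 2, 3 or 4 left out the count was 40, 90, 10 and 97. Here and below, an experiment left out means this pair alone, and its arrays of other days stayed in the fit. When the variance was estimated from the 8 day 4 arrays alone, *cyp1a* was the only probe called, and limma called 0 probes when the block was added (804 at an unadjusted p under 0.01).

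**Figure D1:**
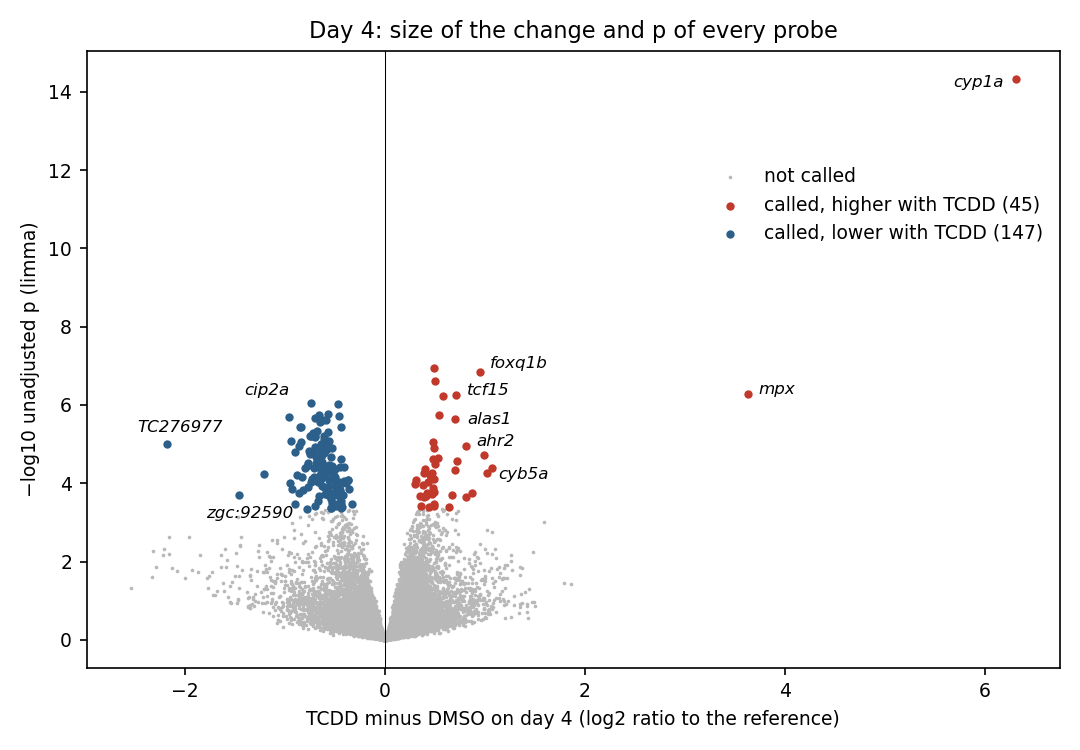
Change of every probe on day 4 (x axis, TCDD minus DMSO, log2) against its unadjusted limma p (y axis, -log10). Red points are the 45 probes called higher with TCDD, blue points the 147 called lower and gray points the probes not called. *cyp1a* and *mpx* lie far to the right of all other probes called. The position of *mpx* rests on DMSO ratios deposited as 0, and in the embryo channel it was at least 3.25-fold higher.

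*cyp1a* had the largest change. Its log2 ratios were 9.00, 8.83, 9.60 and 9.76 on the TCDD arrays, against 3.42, 2.81, 2.65 and 3.09 on the DMSO arrays. The lowest TCDD array thus lay far above the highest DMSO array. The change was 6.31 ± 0.44 (SE) on the log2 scale, 79.1-fold, with an adjusted p of 1.0e-10 (limma). *ahr2*, the gene of the receptor itself, had log2 ratios of 0.29, -0.20, 0.14 and 0.18 with TCDD, against -0.74, -0.75, -0.70 and -0.66 with DMSO. The groups did not overlap, and the spread was wider among the TCDD arrays (SD 0.21) than among the DMSO arrays (SD 0.04). *ahr2* rose 1.76-fold (log2 change 0.81 ± 0.16, adjusted p = 0.0055), while its dimmer second probe had a change of 0.46 and an adjusted p of 0.46. The call of *ahr2* was lost after centring and scaling between arrays and without experiment 1 or 3.

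*foxq1b*, a forkhead transcription factor gene, gave 0.34, -0.73, -0.29 and -0.21 with TCDD, against -0.97, -1.28, -1.33 and -1.08 with DMSO. Although TCDD replicate 2 was lowest of its group, every TCDD array lay above every DMSO array, and the gene rose 1.93-fold (log2 change 0.95 ± 0.14, adjusted p = 0.0010). *cyb5a*, which encodes cytochrome b5, an electron donor to cytochromes P450, had log2 ratios of 3.73, 3.01, 3.59 and 4.08 with TCDD, against 2.81, 2.31, 2.51 and 2.68 with DMSO. It rose 2.03-fold (1.02 ± 0.22, adjusted p = 0.013), and its second probe was called as well, with a log2 change of 1.08. The *cyb5a* call was lost without TCDD replicate 1, TCDD replicate 4, DMSO replicate 2 or experiment 1, 3 or 4. Among other enzymes, *mao*, encoding monoamine oxidase, rose by 0.67 ± 0.16 on the log2 scale (adjusted p = 0.027) and *tpmt.1*, encoding a thiopurine methyltransferase, by 0.49 ± 0.12 (adjusted p = 0.041). Neither was called without TCDD replicate 1, DMSO replicate 2 or 3, or any 1 of the experiments, and *mao* was also lost without TCDD replicate 4 and *tpmt.1* without TCDD replicate 3 or DMSO replicate 4. Further probes of *mao* had changes of 1.11 and 0.10 and were not called.

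Of the 30 genes in the list of the AHR pathway and its targets, 14 were on the array. Like the other lists below, it was chosen with earlier results of these data known. Its share of calls is thus no independent test. Of these, *cyp1a*, *foxq1b* and *ahr2* rose and *arnt2*, the gene of a dimerization partner of the receptor, fell, against 0.222% of 17983 genes (1 probe each) called higher and 0.767% called lower (0.99% together). The median log2 change of the 14 was 0.17, against 0.01 over all genes. The other 10 members were not called. Their log2 changes ranged from 0.64 for *ugt1ab* (adjusted p = 0.73) to -0.55 for *nfe2l2a* (adjusted p = 0.12, and 0.034 with the block), which encodes the antioxidant regulator Nrf2 and whose r with the set of lower probes described further on was 0.84. *nqo1*, a quinone reductase gene, had a change of 0.34 (adjusted p = 0.34). The genes of the chaperone complex that holds the receptor, *aip*, *hsp90ab1*, *ptges3a* and *ptges3b*, had changes between -0.11 and 0.09. Among 31 antioxidant genes *keap1a*, which encodes the adaptor that marks Nrf2 for degradation, was the only one called, with a log2 rise of 0.45 ± 0.10 (adjusted p = 0.013), and its call was lost without TCDD replicate 1, DMSO replicate 2, 3 or 4 or experiment 2, 3 or 4, and in the embryo channel alone. The glutathione transferase, peroxidase, superoxide dismutase and catalase genes of that list were not called. A further probe annotated as Keap1 (TC293151) rose by 0.49 and a probe annotated as similar to glutathione reductase (ENSDART00000009207) rose by 0.70, both picked with their values known and both lost without TCDD replicate 1, DMSO replicate 2 or DMSO replicate 4, and TC293151 also without DMSO replicate 3.

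**Figure D2:**
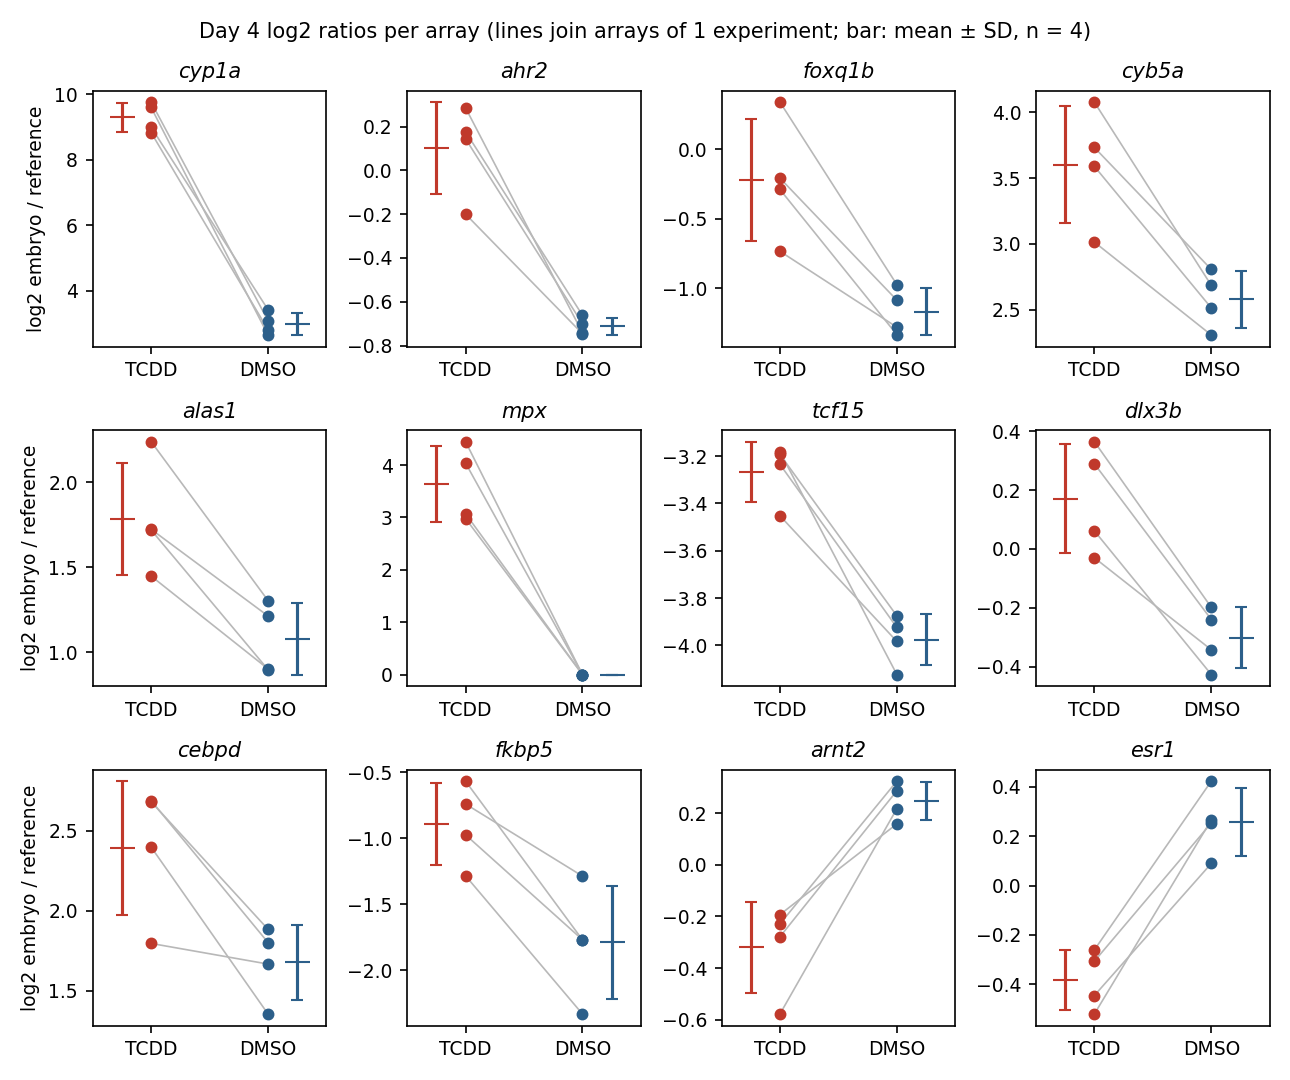
Log2 ratio of embryo to reference (y axis) on each day 4 array for 12 genes, with TCDD arrays in red on the left and DMSO arrays in blue on the right of each panel. Gray lines join the arrays of 1 experiment and bars give the mean ± SD (n = 4); *cyp1a*, *ahr2*, *foxq1b*, *cyb5a*, *alas1*, *mpx*, *tcf15* and *dlx3b* are higher with TCDD in all 4 pairs, *arnt2* and *esr1* lower, and *cebpd* and *fkbp5* higher without being called.

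Heme is the cofactor of cytochromes P450 and of hemoglobin, and *alas1* encodes the enzyme that starts its synthesis outside red cells. *alas1* gave log2 ratios of 2.24, 1.45, 1.72 and 1.72 on TCDD arrays, against 1.30, 0.90, 0.90 and 1.21 on DMSO arrays. All TCDD values lay above all DMSO values, and the gene rose 1.63-fold (0.70 ± 0.12, adjusted p = 0.0028). The call was lost without experiment 3. The other 6 heme synthesis genes measured were not called and lay between -0.25 (*slc25a37*) and 0.02 (*cpox*). Over all genes, 0.222% were called higher and 0.767% lower. limma called 0 of 20 hemoglobin and red cell genes and 0 of 10 iron genes, with 2 and 3 at an unadjusted p under 0.05, against 8.61% of all genes, and none of the alternatives called any. The larval globin gene *hbbe2* gave 7.72, 7.45, 7.88 and 7.41 with TCDD and 7.59, 7.55, 7.16 and 8.14 with DMSO, a log2 change of 0.01 ± 0.39 (SE). The globins share much of their sequence, so that their probes may not tell the copies apart. The red cell gene of the same enzyme step, *alas2*, was not measured under that name.

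Of 28 immediate early genes and components of AP-1, the FOS and JUN dimer, 2 were called higher and none lower, against 0.222% and 0.767% of all genes. At an unadjusted p under 0.01, 9 were higher and 0 lower, against 1.5% and 1.96% of all genes (3.46% together). Their median log2 change was 0.28, against 0.01 for all genes, and 11 were higher in all 4 pairs while none was lower in all 4, against 12.6% and 10.6% of all genes. The median lay between 0.21 and 0.34 under the 23 alternatives. The called members were *dusp6*, whose product dephosphorylates ERK (0.39 ± 0.08, adjusted p = 0.013), and *ier5l* (0.30 ± 0.07, adjusted p = 0.018). Neither was called without TCDD replicate 1, TCDD replicate 4, DMSO replicate 3 or experiment 1, 3 or 4, or in the embryo channel alone, and *ier5l* was also lost without DMSO replicate 2 or 4 or experiment 2. The list had 7 calls, all higher, without TCDD replicate 2. *socs3a*, an inhibitor of cytokine signaling, had the largest change of the list (2.14-fold, SE 0.36 on the log2 scale) with an adjusted p of 0.21. Its log2 ratios were -1.68, -2.89, -1.91 and -0.88 with TCDD, against -2.87, -2.76, -3.29 and -2.84 with DMSO. TCDD replicate 2 lay among the DMSO arrays, while the other 3 TCDD arrays lay above them.

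TCDD replicate 2 was the lowest TCDD array for other genes of this list as well. *cebpd*, an acute-phase transcription factor gene, gave 2.68, 1.80, 2.40 and 2.69 with TCDD and 1.88, 1.67, 1.35 and 1.80 with DMSO. Its change of 0.72 ± 0.19 had an adjusted p of 0.058, and of 0.035 with the experiment as a block. *junbb* (0.53, adjusted p = 0.19), *junba* (0.54, adjusted p = 0.61, with 3 TCDD values because the spot on TCDD replicate 3 was marked an outlier) and *fosab* (0.41, adjusted p = 0.92) were not called. *fosab* was high on DMSO replicate 4 (1.85), against 0.25 to 0.45 on the other 3 DMSO arrays. *socs3b* (0.95), *egr2a* (0.92), *jdp2b* (0.41, adjusted p = 0.083, and 0.049 with the block) and *klf6a* (0.26) also passed an unadjusted p under 0.01 without being called. Apart from *fosab*, *junba* and *junbb*, the genes of this list that were not called were picked with their values known.

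Of 17 glucocorticoid response and steroid genes 1 was called, lower, against 0.767% of all genes called lower. *fkbp5*, a chaperone partner of steroid receptors, had log2 ratios of -0.74, -1.28, -0.97 and -0.57 with TCDD, against -1.29, -2.33, -1.77 and -1.77 with DMSO. The gene was higher with TCDD in all 4 pairs, and the highest DMSO array, that of experiment 1, fell just below the lowest TCDD array, that of experiment 2. The change of 0.90 ± 0.30 had an adjusted p of 0.23. The call in this list was *esr1*, an estrogen receptor gene, which fell by 0.64 on the log2 scale (SE 0.12, adjusted p = 0.0055), and belongs to the set of lower probes described further on. Its call was lost without experiment 1 or 3 and in the embryo channel alone. *esr2a* and *esr2b* had changes of -0.04 and 0.05, and *nr3c1*, the glucocorticoid receptor gene, of -0.08, none of them called.

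*mpx* encodes myeloperoxidase of neutrophil granules. Its log2 ratios were 4.45, 3.07, 2.98 and 4.04 on the TCDD arrays. On the 4 DMSO arrays the ratio was deposited as 0, and the embryo signal was not well above background on any of them. The adjusted p was 0.0018 (limma). The DMSO arrays of days 3, 4 and 5 all entered the shared estimate of the spread with an SD of 0. This p therefore does not measure the spread among DMSO replicates. As measured in the embryo channel after loess within and Aquantile between arrays, *mpx* was at least 3.25-fold higher with TCDD: the mean log2 signal was 8.08 on the TCDD arrays, against a limit of 6.38 on the DMSO arrays, where each array's limit is the larger of its lowest signal well above background and the probe's own. The call was lost after normexp background correction and loess. A ratio of exactly 0, which the scanner software gives to dim spots, stood for 601 to 1501 probes per day 4 array.

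Of the 12 neutrophil genes measured *mpx* alone was called, against 0.222% of all genes called higher. Their median log2 change was 0.20 with 8 of 12 above 0, against 9398 of all 17984 genes. The median was 0.03 with 6 of 12 above 0 after normexp and loess, 0.05 without DMSO replicate 3 and 0.33 without DMSO replicate 4. *mmp9* and *mmp13a*, matrix metalloproteinase genes, had changes of 1.20 ± 0.59 and 0.78 ± 0.43, each higher with TCDD in all 4 pairs and with adjusted p of 0.57 and 0.66. *lyz*, the lysozyme gene, and *npsn*, a neutrophil protease gene, had changes of 0.21 and 0.18. Over the 4 markers of neutrophils on the array, the mean log2 ratio of an array was 2.44 to 3.28 with TCDD, against 1.18 to 1.62 with DMSO, where *mpx* enters with the deposited 0. *mpx* and *mmp9* were higher in all 4 pairs, and the other 2 markers, *lyz* and *npsn*, were not. Of 17 macrophage and leukocyte genes and 25 genes of inflammation and complement limma called 0, with 3 and 4 at an unadjusted p under 0.05 and medians of -0.17 and 0.21, and the embryo channel alone called 1 of the 25. A probe annotated as similar to a mouse small inducible cytokine (BI475311) rose by 0.99 ± 0.20 on the log2 scale (adjusted p = 0.0072), and was picked with its value known, as were *mmp9* and *mmp13a*. Its call was lost without TCDD replicate 1 or experiment 1, 3 or 4. It gave 2.21, 1.33, 2.33 and 1.98 with TCDD and 1.19, 0.84, 0.89 and 0.98 with DMSO.

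Several of the raised genes encode developmental transcription factors. *tcf15*, a transcription factor gene of the somites, gave log2 ratios of -3.45, -3.23, -3.19 and -3.18 with TCDD, against -3.98, -3.92, -3.88 and -4.12 with DMSO. Both groups were tight (SD 0.13 and 0.11) and apart, and the gene rose 1.64-fold (0.71 ± 0.11, adjusted p = 0.0018). The mesenchymal homeobox gene *prrx1a* rose by 0.55 ± 0.09 (adjusted p = 0.0028) through its brightest probe, whereas its other 3 probes had changes of 0.42, 0.29 and -0.02, none called. *dlx3b*, a homeobox gene of placodes and fin folds, rose by 0.47 ± 0.10 (adjusted p = 0.013) and by 0.50 through a second probe, also called. *meox1* (0.42), a homeobox gene of the somites, and *pax9* (0.39), which acts in the sclerotome and pharyngeal pouches, were also called, both picked with their values known. *meox1* was called on leaving out DMSO replicate 3 but no other single array, and *pax9* was lost without TCDD replicate 1 or DMSO replicate 2, 3 or 4. *tcf15* and *prrx1a* were no longer called after centring and scaling between arrays or in the embryo channel alone, and *tcf15* was not called after normexp and loess either.

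The genes of 2 secreted inhibitors of Wnt signaling also rose. *notum1b*, whose product removes the lipid from Wnt ligands, gave -0.16, -0.43, -0.25 and -0.20 with TCDD, against -0.77, -0.94, -0.76 and -0.89 with DMSO. The groups were apart in every pair and the rise was 1.50-fold (0.58 ± 0.09, adjusted p = 0.0018). *wif1*, encoding a Wnt-binding factor, rose by 0.49 ± 0.12 (adjusted p = 0.025). It was the sole call in the list of 38 fin and Wnt genes, whose median was 0.04, against 0.222% of all genes called higher and 0.767% lower. That list does not hold *notum1b*, nor the Wnt receptor gene *fzd6*, which was called lower (-0.65). *cthrc1a*, a secreted collagen-repeat protein gene, rose by 0.49 ± 0.09 (adjusted p = 0.0058). *ctgf*, encoding connective tissue growth factor, rose by 0.64 (adjusted p = 0.047) and the probe TC269662, annotated as its precursor, by 0.72 (adjusted p = 0.0089), both picked with their values known. In the list of 38 jaw cartilage and bone genes, *cthrc1a* and *dlx3b* were the members called, the median was -0.12 and the cartilage genes *sox9a* (-0.71), *hapln1a* (-0.73) and *cnmd* (-1.02) were not called (adjusted p between 0.49 and 0.78). That median was -0.0029 without TCDD replicate 2 and -0.025 without TCDD replicate 3, and turned to 0.02 after centring and scaling and to 0.08 in the embryo channel alone. Neither *cthrc1a* nor *dlx3b* was called in the embryo channel alone or without experiment 1, 3 or 4, and *dlx3b* was also lost without TCDD replicate 1 or DMSO replicate 2 or 3. *wif1* was called on leaving out TCDD replicate 2 or DMSO replicate 1 but no other single array, and *ctgf* on leaving out TCDD replicate 2 alone.

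*klf2b*, a zinc finger gene, rose by 0.49 ± 0.07 (adjusted p = 0.0010) and was called by 2 probes. *cdkn1ba*, which encodes an inhibitor of cyclin-dependent kinases, rose by 0.48 ± 0.09 (adjusted p = 0.0051). Both were picked with their values known. *rnd3b*, which encodes a small GTPase, rose by 0.53 ± 0.11 (adjusted p = 0.0076), while its second probe had a change of 0.14 and was not called. *cap1*, whose product binds actin monomers, rose by 0.35 ± 0.08 (adjusted p = 0.028), the only call among 58 actin cytoskeleton genes, against 0.222% of all genes called higher. The *cap1* call was lost on leaving out any 1 array but TCDD replicate 2 or DMSO replicate 4, and that of *rnd3b* without TCDD replicate 1. *serinc2*, named for serine incorporation into membrane lipids, rose by 0.49 ± 0.12 (adjusted p = 0.044), and lost its call on leaving out any 1 array but TCDD replicate 2, TCDD replicate 4 or DMSO replicate 3. Without experiment 1, 3 or 4, *klf2b* alone of these 5 genes was called. Of 34 DNA replication genes and 41 mitosis genes limma called 0, with 2 of each at an unadjusted p under 0.05 and medians of -0.07 and -0.04, and the block, normexp with loess, scaling and array weights each called 1 mitosis gene lower.

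The probes called lower moved together across the whole series. For each probe, the deviations of the 39 arrays from their group means were set against the median deviation of the other probes called lower. The median r of the 147 was 0.80, with a 5th to 95th percentile range of 0.46 to 0.93, and 136 of them had an r over 0.5. For all probes the median r was -0.04 and 2.34% exceeded 0.5, and among the 45 probes called higher the median was -0.18 and 0 exceeded 0.5. These r describe probes that share the same 39 arrays, the reference RNA and the array's normalization, and no test was made of them.

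Their median log2 ratio per array was -0.64, -0.24, -0.43 and -0.25 with TCDD, against 0.08, 0.27, 0.20 and 0.19 with DMSO. TCDD replicates 1 and 3 were the lowest arrays and DMSO replicate 1 the lowest of its group. The shift lay in the embryo channel, whose median was -0.64 log2 units for these probes against 0.03 in the reference channel. When the embryo channel was fitted alone, however, 25 of the 147 stayed called, and 9 of the 45 called higher. These probes were brighter than most in the embryo channel, with a median log2 signal of 10.41 on the TCDD arrays and 10.92 on the DMSO arrays, against 8.80 and 8.72 for all probes. Their mean DMSO log2 ratios had a 5th to 95th percentile range of -0.71 to 1.07, against -2.29 to 3.22 for the probes called higher. A current gene symbol that is not a clone or locus name was held by 48 of the 147, and by 36 of the 45 called higher. Of the genes called lower 1 (*galk2*) was called by over 1 probe, and of those called higher 3 were (*cyb5a*, *dlx3b* and *klf2b*). Beside the called probes, 19 of the genes called lower had 31 other probes above background on all 4 arrays of at least 1 group, none called. Of these, 18 had a change of the same sign, with 1 such probe passing an unadjusted p of 0.05, and the median change was -0.07. For 11 of the genes called higher there were 13 such probes, of which 10 had the same sign, with 6 passing an unadjusted p of 0.05, and the median change was 0.26. How much of each fall goes with this common movement was not tested.

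**Figure D3:**
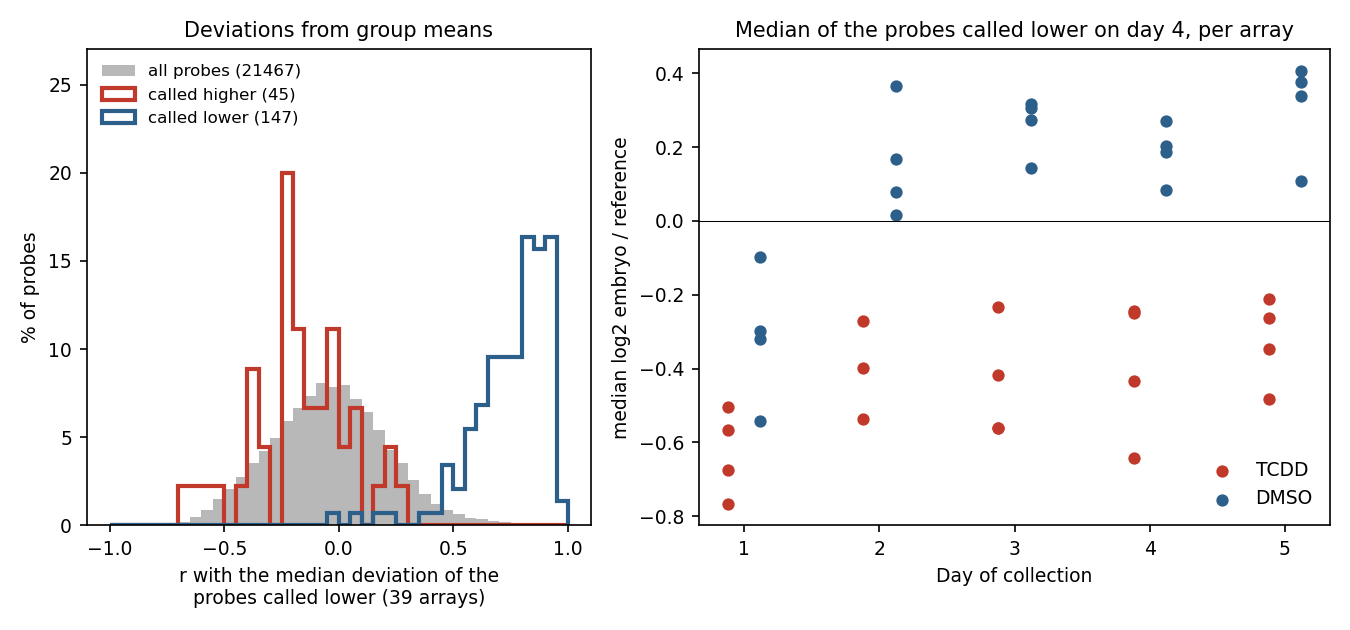
Left, share of probes (y axis, %) by the r of their deviations from group means with the median deviation of the probes called lower (x axis, 39 arrays), for all probes (gray), those called higher (red) and those called lower (blue). Right, median log2 ratio of the 147 probes called lower on each array (y axis) by day of collection (x axis), with TCDD in red and DMSO in blue; the 2 treatments lie apart on days 2 to 5.

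By the naming rule, the genes with the largest falls in this set were *creg2*, *tnk1*, *mtf1*, *mymk*, *cip2a*, *cnksr1*, *tnni2b.2*, *hapln3*, *lhfpl3*, *xkr7b*, *fzd6*, *he1.3*, *esr1*, *ppih* and *plod2*, with log2 changes from -0.88 to -0.63. Of these, *mtf1* encodes the metal-responsive activator of metallothionein genes, *mymk* the myoblast fusion protein myomaker, *fzd6* a Wnt receptor, *cip2a* an inhibitor of protein phosphatase 2A, and *he1.3* a hatching enzyme. Some probes of the set that the rule did not name fell further than *creg2*. A probe of *pbx1a*, picked with its value known, was among them (-0.93). Without TCDD replicate 1 the calls of *creg2*, *mymk*, *cnksr1*, *hapln3*, *lhfpl3*, *fzd6*, *he1.3* and *ppih* were lost, without DMSO replicate 2 those of *creg2*, *cnksr1*, *lhfpl3* and *he1.3*, without DMSO replicate 4 those of *creg2*, *cnksr1*, *fzd6* and *mymk*, and without TCDD replicate 3 that of *cnksr1*. Without experiment 3, *cip2a* was the only gene of the 15 still called. *mtf1* had log2 ratios of -0.96, -0.58, -0.74 and -0.49 with TCDD, against 0.08, 0.18, 0.14 and 0.18 with DMSO. The groups were well apart, and the change was -0.84 ± 0.15 (adjusted p = 0.0035), but the r of this probe with the rest of the set was 0.91. *arnt2* gave -0.58, -0.23, -0.28 and -0.19 with TCDD and 0.22, 0.32, 0.29 and 0.16 with DMSO, a change of -0.57 ± 0.10 (adjusted p = 0.0028) with an r of 0.72. Its other 2 probes had changes of -0.23 and -0.17 and adjusted p of 0.93 and 0.89.

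The called probe of the fast troponin gene *tnni2b.2* gave -0.25, 0.29, 0.04 and 0.35 with TCDD, against 0.74, 0.91, 0.77 and 0.91 with DMSO. All TCDD values lay below all DMSO values (change -0.73 ± 0.13, adjusted p = 0.0042), while the gene's other 2 probes had changes of -0.14 and -0.07 and were not called. Those 2 probes had far higher mean log2 ratios, 7.15 and 6.12 with TCDD and 7.30 and 6.18 with DMSO. Whether the called probe reports the same transcript was not tested. *cip2a* and *cnksr1* each had a second probe with a change of the other sign (0.12 and 0.20, not called). Calls in several lists were also probes of this set, against 0.767% of all genes called lower. Among them were *sox7* of the blood vessel endothelium (-0.63, r = 0.62), whose second probe (-0.40) was not called, and *elovl5*, a fatty acid elongase gene (-0.63, r = 0.82). Also among them were *bag2*, a co-chaperone gene (-0.46, r = 0.82), and *opn1mw4*, a green cone opsin gene (-0.37, r = 0.72). Without TCDD replicate 1, without DMSO replicate 2 and without experiment 1 or 3, none of these 4 was called. *sox7* was also lost without TCDD replicate 3, *elovl5* without DMSO replicate 4, and *bag2* and *opn1mw4* without DMSO replicate 3 or 4.

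A few lower probes stood outside the common movement. *plod2*, whose product hydroxylates collagen lysines, had log2 ratios of 0.63, 0.55, 0.34 and 0.81 with TCDD, against 1.18, 1.13, 1.27 and 1.27 with DMSO. All TCDD values lay below all DMSO values, the change was -0.63 ± 0.12 (adjusted p = 0.0063) and the r with the set was 0.23. It was the sole call among 50 extracellular matrix genes, whose median was -0.08, against 0.767% of all genes called lower and 0.222% higher. The largest fall among the probes called was that of TC276977, a transcript with no gene name here, with 1.05, 1.45, 0.29 and 1.49 with TCDD and 2.98, 3.50, 3.51 and 3.02 with DMSO. It fell by 2.18 on the log2 scale (SE 0.41, adjusted p = 0.0054, r = -0.01), with 2 of the 4 TCDD arrays and all 4 DMSO arrays above background. *zgc:92590* fell by 1.46 (SE 0.34, adjusted p = 0.027, r = 0.06), while its other probes had changes of -1.12 and 0.24, not called. Both were picked with their values known, and the call of TC276977, like those of *arnt2* and *mtf1*, was lost without experiment 3. The *zgc:92590* call was lost on leaving out any 1 array but TCDD replicate 2, TCDD replicate 4 or DMSO replicate 3, and the *plod2* call without experiment 1 or 3. In the embryo channel alone *plod2* was not called, nor were *arnt2* and *tnni2b.2*.

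Organ genes gave few calls. Photoreceptor and retinal pigment epithelium genes had a median log2 change of -0.36, and 35 of 40 were below 0, against 8483 of all 17984 genes. Of them 14 were lower in all 4 pairs and 2 higher, against 10.6% and 12.6% of all genes. The sole call was *opn1mw4*, against 0.767% of all genes called lower, while *nr2e3* (-0.47) and *gnb1b* (-0.46) passed an unadjusted p under 0.01 only. The *opn1mw4* call was lost without TCDD replicate 1, without DMSO replicate 2, 3 or 4, without any 1 of the experiments, after centring and scaling and in the embryo channel alone. This opsin belongs to a tandem family with *opn1mw1*, *opn1mw2* and *opn1mw3* (-0.33, -0.22 and -0.24, not called), whose probes may not tell the copies apart, and its own second probe was not above background on any day 4 array. With DMSO, the mean log2 ratio of its called probe went from -0.56 on day 1 to 0.25 on day 5. That of *gnat2* went from 0.47 to 8.78 over the same days. The cone transducin gene *gnat2* gave 8.28, 7.58, 7.25 and 8.27 with TCDD and 8.75, 8.45, 8.33 and 9.12 with DMSO, a change of -0.82 ± 0.69 (adjusted p = 0.89). Over the 4 photoreceptor markers measured, the mean of an array was 7.18 to 7.80 with TCDD, against 7.74 to 8.50 with DMSO, so that the groups touched. The list's median was -0.09 after centring and scaling between arrays, when 26 of 40 were below 0.

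Lens genes had a median of -0.37 (25 of 29 below 0) and eye and brain transcription factors of -0.18 (31 of 48 below 0), against 8483 of all 17984 genes below 0. In either list limma called 0, with 1 and 7 at an unadjusted p under 0.05, against 8.61% of all genes. The block called 1 of the 48. The lens median was -0.04 without TCDD replicate 1 and -0.06 without experiment 1 (22 and 21 of 29 below 0), and the other leave-outs of 1 array moved it between -0.59 and -0.32. The median of the transcription factors was -0.10 without TCDD replicate 1, -0.12 without DMSO replicate 2, -0.09 without DMSO replicate 4, -0.29 without TCDD replicate 4 and -0.28 without DMSO replicate 3. The neural gene *dbx1b*, measured on 3 TCDD arrays, had a change of -0.55 (adjusted p = 0.99). The sign of the *dbx1b* change turned without DMSO replicate 4 (0.77), the array with the highest value (8.16). Of 29 heart genes limma called 0, with 2 at an unadjusted p under 0.05 and a median of -0.22, and the alternatives called none. The median lay between -0.22 and -0.05 under the alternatives, and was -0.12 without TCDD replicate 3, -0.11 without DMSO replicate 4 and between -0.14 and -0.13 without any 1 of the experiments. *myl7*, a cardiac myosin light chain gene, had a change of 1.28 ± 0.50 (adjusted p = 0.37), carried by 7.74 on TCDD replicate 3 against 5.07 to 6.15 on the other TCDD arrays and 4.61 to 5.41 with DMSO. Its sign turned after normexp and loess (-0.25) and in the embryo channel alone (-0.14).

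Liver plasma protein genes (30), pancreas genes (17) and intestine genes (9) gave 0 calls in limma, with 1, 0 and 0 at an unadjusted p under 0.05 and medians of 0.02, -0.03 and -0.23. The embryo channel alone called 1 liver gene. The muscle list of 46 had the *tnni2b.2* probe as its only call and a median of -0.12, which was 0.13 after centring and scaling between arrays. Neurons and glia (45 genes), keratins and epidermis (53), calmodulins and calcium handling (44), glycolysis (29), proteasome (43), respiratory chain (55), ribosomal proteins (72), the circadian clock (26), pigment cells (20) and p53 and apoptosis (29) gave no call either, with medians between -0.14 and 0.09 and between 0 and 6 members at an unadjusted p under 0.05. The 6 were pigment cell genes (30% of the 20), 3 of them higher at an unadjusted p under 0.01. For p53 and apoptosis the share under 0.05 was 17.24%, and for the other lists 0% to 6.98%, against 8.61% of all genes. Of these lists, the block called 2 proteasome genes higher and 1 glycolysis gene lower, and leaving out TCDD replicate 4 called 1 p53 gene lower. *pfkma*, a glycolysis gene, had a change of 0.41 ± 0.51 (adjusted p = 0.96), with 7.51 on TCDD replicate 3 against 5.38 to 6.18 on the other TCDD arrays. Its second probe had a change of the other sign (-0.14 ± 0.10) and was not called. Of 98 chaperone genes *bag2* and *ppih* were called lower and none higher, and of 19 hypoxia genes only *arnt2*, lower. Over all genes, 0.767% were called lower and 0.222% higher. Both lists had a median of 0.05, with 65 of 98 and 11 of 19 genes above 0. Of the chaperone genes 21 were higher in all 4 pairs and 9 lower, against 12.6% and 10.6% of all genes. The share at an unadjusted p under 0.05 was 17.35% for chaperones and 36.84% for hypoxia, against 8.61% of all genes. The endothelial receptor gene *tie1* was lower in all 4 pairs with a change of -0.72 (adjusted p = 0.23), as was *cd74a*, the invariant chain gene (-0.96, adjusted p = 0.23), both picked with their values known.

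**Figure D4:**
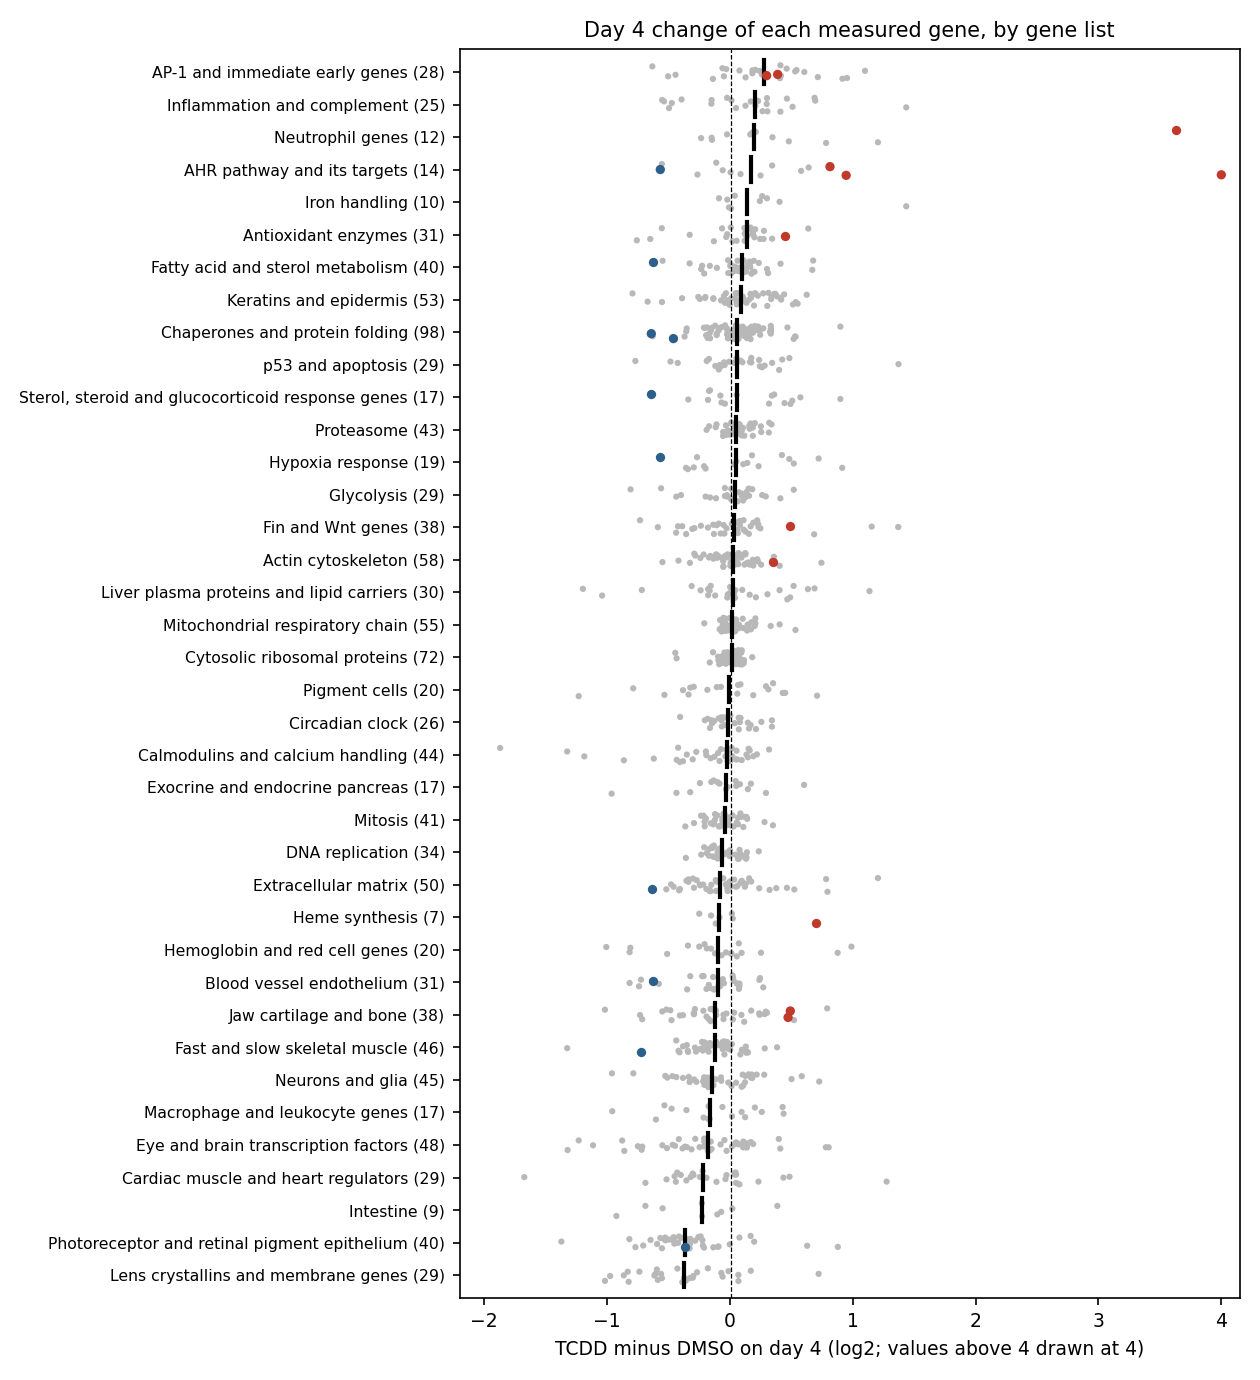
Log2 change on day 4 (x axis, TCDD minus DMSO) of every measured gene in 38 gene lists (y axis, number of genes in brackets), ordered by the list's median (black bar). Genes called higher are red, called lower blue and not called gray, and the dashed line is the median of all genes (0.01); the highest median is 0.28 for AP-1 and immediate early genes and the lowest -0.37 for lens genes, which was -0.04 without TCDD replicate 1.

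For several of the raised genes, which were named for their calls on day 4, the change was larger on day 4 than on day 3. For others it was smaller. The changes on days 3 and 4 were 1.33 and 1.02 for *cyb5a*, 0.78 and 0.71 for *tcf15* and 0.58 and 0.42 for *meox1*. The log2 changes of *ahr2* on days 1 to 5 were 0.03, 0.45, 0.53, 0.81 and 0.94, and those of *alas1* were 0.19, 0.23, 0.19, 0.70 and 0.97. *mpx* had mean log2 ratios of 2.32, 3.63 and 3.70 with TCDD on days 3, 4 and 5, against ratios deposited as 0 on the DMSO arrays of these days. *cyp1a* was raised on every day, by 4.31, 6.33, 6.61, 6.31 and 5.72, and *foxq1b* by 0.74 to 0.95 from day 2 on. Some genes that were not called on day 4 had far larger changes on day 5, when *socs3a* had 2.91, *fkbp5* 2.25, *mmp9* 4.05 and *cebpd* 1.34, all called on that day. Apart from *fkbp5* they were picked with their values known. Other genes not called on day 4 had smaller changes on day 5, such as *tie1* (-0.72 and -0.16) and *cd74a* (-0.96 and -0.76).

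When the difference between days was itself tested, no probe passed. For day 4 minus day 3, limma called 0 of 21492 probes, with 638 (2.97%) at an unadjusted p under 0.05 and 118 (0.549%) under 0.01. For day 4 minus day 5 it called 0 of 21493, with 945 (4.4%) and 191 (0.889%). What size of difference these comparisons could detect was not tested, so 0 calls do not show that the days were alike. Among the named genes, the day 4 change of *alas1* exceeded that of day 3 by 0.52 (unadjusted p = 0.0052, adjusted p = 1.0). The day 4 change of *socs3a* was 1.81 below that of day 5 (unadjusted p = 0.0013, adjusted p = 0.82), *mmp9* 2.85 below (0.0017 and 0.82) and *fkbp5* 1.35 below (0.0037 and 0.92). TC276977, with changes of -0.09, -0.93, -0.04, -2.18 and -0.81 over the days, was 2.15 lower on day 4 than on day 3 (unadjusted p = 0.00093, adjusted p = 1.0).

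**Figure D5:**
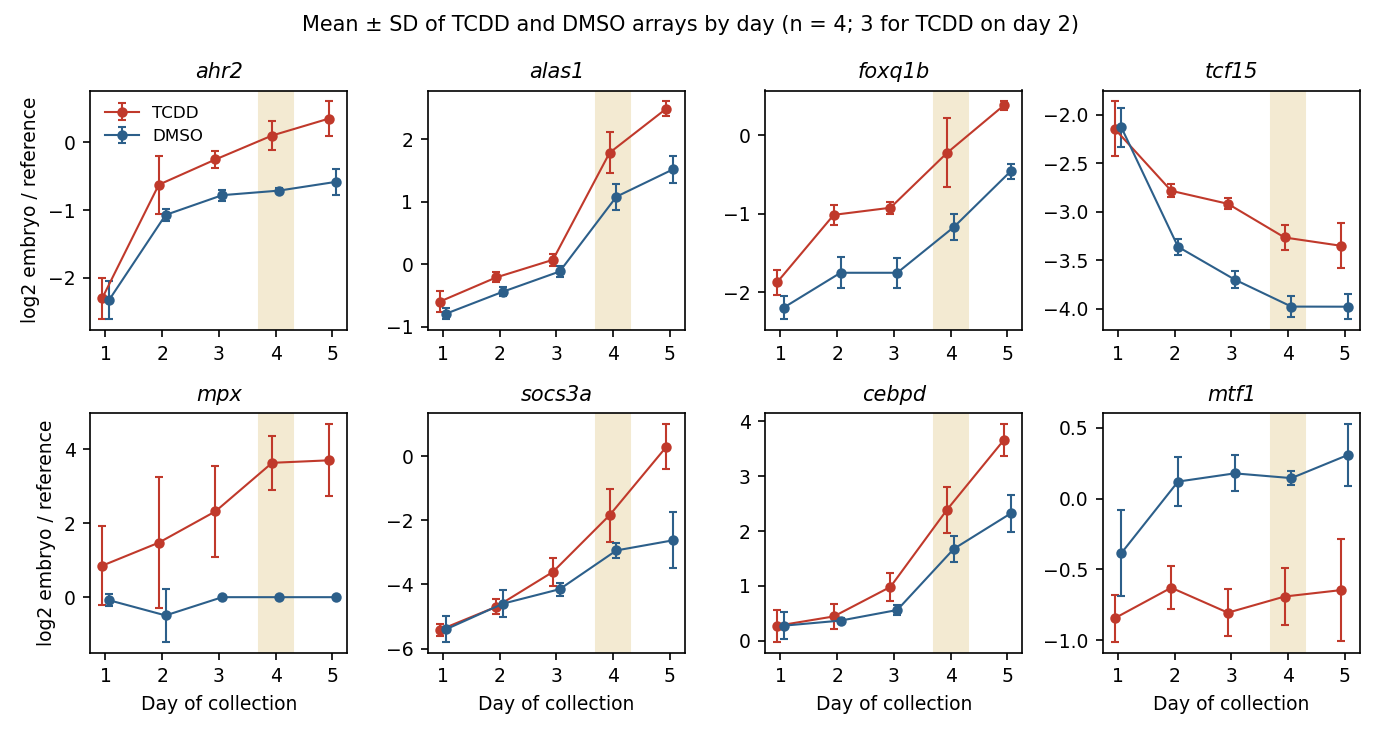
Mean ± SD of the log2 ratio of embryo to reference (y axis) by day of collection (x axis) for 8 genes, with TCDD in red and DMSO in blue (n = 4 arrays, 3 for TCDD on day 2); day 4 is shaded. *ahr2*, *alas1*, *foxq1b*, *tcf15* and *mpx* are higher with TCDD on day 4, *socs3a* and *cebpd* part further on day 5, and *mtf1* is lower with TCDD on all days.

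Of the 45 probes called higher on day 4, 39, 44, 45 and 45 were higher with TCDD on days 1, 2, 3 and 5 and 1, 5, 26 and 38 were called so, on days when 0.00465%, 0.14%, 1.07% and 3.64% of all probes were called higher. The 26 of day 3 were 57.8% of the day 4 list and 11.3% of the 231 probes called higher on day 3, and the 38 of day 5 were 84.4% of the day 4 list and 4.85% of the 783 of day 5. The probes called lower were lower with TCDD on nearly all other days, with medians of -0.33, -0.54, -0.71 and -0.63 on days 1, 2, 3 and 5. They were called lower in 1, 85, 138 and 142 of 147 cases, against 0.00931%, 0.563%, 1.68% and 2.63% of all probes. The 138 were 38.3% of the 360 probes called lower on day 3, and the 142 were 25.1% of the 565 of day 5. These days do not share arrays, but share the experiments and 1 estimate of the variance.

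The DMSO arrays of days 3 and 5, which do not enter the day 4 contrast, give the direction in which each probe moved during normal development. Of the 192 called probes, 101 (52.6%) changed on day 4 against that direction, compared with 48.7% of all probes. The share was 31.1% (14 of 45) among probes called higher and 59.2% (87 of 147) among those called lower. At the unadjusted threshold it was 44.5% (323 of 726). *alas1*, *cyb5a*, *mao* and *foxq1b*, all raised by TCDD, also rose between days 3 and 5 in DMSO embryos, by 1.64, 0.95, 1.60 and 1.29 on the log2 scale. *prrx1a*, *rnd3b* and *meox1* fell over the same days with DMSO (by 0.59, 0.58 and 0.38) and were higher with TCDD on day 4.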

How the data were processed

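Agilent zebrafish arrays were read with Feature Extraction 8.1.1, according to the submitters' processing notes. The deposited log10 ratio of each spot is that of the red embryo signal to the green Zf4 signal, after the authors' software had subtracted the background and normalized the dyes within each array, and nothing was applied between arrays. The deposited intensity of each spot, raw and processed, was used for the brightness of probes, the bound for *mpx* and the alternatives. The scanner's own error and p-value columns were not used.

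The log10 ratios were converted to log2, control spots were left out and outlier spots (10 to 88 per day 4 array) were treated as missing. A model with 1 mean for each of the 10 treatment and day groups was fitted over all 39 arrays with limma 3.58.1 (lmFit, eBayes) under R 4.3.3, following the study's analysis of variance, and p-values were adjusted by Benjamini-Hochberg over all probes. Tables and figures were made with Python 3.11.15, pandas 2.3.3, numpy 2.4.6 and matplotlib 3.10.9. Embryos of an array were pooled, so the replicate is an experiment. Names came from RefSeq accessions for 7342 probes, from the files' name where current for 593 or an older synonym for 2341, and were kept as in the files for 11219; 17984 distinct names remained, each represented by its brightest probe over all arrays.

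Named genes were the 15 largest rises and falls among called genes with a current symbol, the same direction in all 4 pairs and signal above background on all arrays of a group; up to 5 called members of each of 38 gene lists; 13 genes of interest fixed by name, of which 1 is not reported here; and called genes of the day comparisons (none). By this rule 48 genes were named, and a further 28 with their values known. Members and lists were chosen with earlier results of these data known.

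The replicate number marks an independent experiment in the study's methods, and the pairing was checked on deviations from group means. On day 4 the r across probes was 0.24 to 0.30 within the 4 pairs and -0.19 to 0.03 between arrays of different numbers. Within pairs it was 0.12 to 0.4 on day 1, 0.24 to 0.34 on day 2 and 0.02 to 0.29 on day 5. On day 3 the r was -0.14 to 0.06 within pairs and -0.14 to 0.16 between different numbers. The block over all arrays takes 1 effect per experiment for all days. On simulated data for the day 4 contrast over 21491 probes, limma called 26.0% of 200 probes given a log2 change of 0.5 and 60.5% of those given a change of 1, with 3 and 6 unchanged probes called. The simulated noise was independent between probes and arrays, without the pairing and the common movement of probes in the real data. These counts therefore give no rate of false calls for probes that move together. The number of arrays limits the precision. Alternatives were the experiment or scan batch as a block, the day 4 arrays alone, normexp (offset 50) with loess, and centring and scaling between arrays. Others were the embryo channel alone, array weights, a filter on dim probes, no moderation, and outlier spots kept. Each day 4 array was also left out in turn and, chosen after seeing the data, the day 4 pair of each experiment. A planned search of promoters for response elements was not run here.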

Additional observations from a re-analysis of the deposited data

Results flagged for a closer look

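Over 76 named genes, 150 groups of 4 arrays were examined for an array far from the other 3, measured as its gap to the nearest value divided by the range of the group. In 10 of them (6.67%) Dixon's 95% critical value was passed, which chance alone gives in about 1 in 20 groups. Among genes with a positive change, *mao* was low on DMSO replicate 3 (2.95, against 3.48 to 3.54, gap 0.905) and *tpmt.1* was high on DMSO replicate 1 (-0.60, against -1.01 to -0.97, gap 0.890). *ctgf* and *jdp2b* were low on TCDD replicate 2, with 1.11 against up to 1.66 (gap 0.894) and -0.85 against -0.28 to -0.18 (gap 0.850). Among genes with a negative change, *creg2* and *opn1mw4* were low on DMSO replicate 1, with 0.85 against at least 1.09 (gap 0.969) and -0.02 against 0.18 to 0.20 (gap 0.910). *bag2* was low on TCDD replicate 1 (-0.97, against -0.53 to -0.47, gap 0.871) and *gnb1b* high on DMSO replicate 3 (-0.62, against -0.79 to -0.76, gap 0.831). Of the genes fixed by name, *fosab* was high on DMSO replicate 4 (1.85, against 0.25 to 0.45, gap 0.876) and *pfkma* low on DMSO replicate 2 (5.18, against 5.81 to 5.93, gap 0.835).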

How the results depend on the processing

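Of the 192 called probes, all were called with the experiment (replicate number) as a block, which gave 339 calls, as they were when blocking on the scan batch, which gave 291. Centring and scaling between arrays gave 120 calls, the embryo channel alone 59, the day 4 arrays alone 1 (*cyp1a*) and these arrays with the block 0 in limma (2765 at an unadjusted p under 0.05). With 1 array left out the count ranged from 46 (without TCDD replicate 1) to 217, with 83 without DMSO replicate 2, 97 without DMSO replicate 4 and 124 without DMSO replicate 3. With a day 4 pair left out it ranged from 10 (experiment 3) to 97 (experiment 4, leaving day 4 arrays of 1 scan batch). It was 40 and 90 for the pairs of experiments 1 and 2. At the study's threshold the count was 436 to 857 with 1 array left out, lowest without TCDD replicate 1, and 422 to 576 with 1 experiment left out, lowest without experiment 1. The other alternatives left both counts within 1.5 times. For day 4 minus day 3 no alternative gave a call. For day 4 minus day 5 the block gave 2 (*f5* and *zgc:76926*), the embryo channel alone 2 (*cfb* and *zgc:76926*), normexp and loess 1 (*zgc:76926*), array weights 1 (*or42e3*), and leaving out an array or an experiment 0 to 1 (*zgc:76926*, without TCDD replicate 4 or experiment 4), all picked with their values known. *zgc:76926* and *or42e3* were not above background on any day 4 array. Calls against the direction of development numbered 323 at the unadjusted threshold. The sign of *myl7* (1.28) turned after normexp and loess (-0.25) and in the embryo channel alone (-0.14), that of *pfkma* (0.41) likewise (-0.30 and -0.23), and that of *dbx1b* (-0.55), which ranged from -1.58 to 0.77 with 1 array left out, without DMSO replicate 4. Of the 40 called genes named by the rule, 40 stayed called with the block, 37 after normexp and loess, 28 after centring and scaling, 10 in the embryo channel alone and 17 without TCDD replicate 1. The number was 12 without experiment 1, 7 without experiment 3, 1 with the day 4 arrays alone and 0 with these arrays and the block. Probes not above background carry no direction.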
